A study of Mus musculus with 12 samples.

Results

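The genes described here are 34 genes of glucose use and of the response to low oxygen, chosen by name: 19 glucose and lactate transporters, glycolytic enzymes and kinases that set glycolytic flux, 13 other hypoxia targets, and both oxygen-regulated alpha subunits of hypoxia-inducible factor (HIF), Hif1a and Epas1. The choice was made with earlier results of these data known, so shares of members set beside shares of all genes are descriptive. Each gene was read through 1 probe set, and 30 of the 34 were tested among 15493 genes. All 30 passed the filter on dim genes. The other 4 were not tested: the 3 probe sets that name Gapdh and the 3 that name Bnip3l each name several genes, and Gpi1 and Eno1 were not analysed here.

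The values are log2 expression levels from 12 microarrays of RNA from whole tumours, 3 arrays in each of 4 groups. The tumours were grown under the skin of the right flank of female 129sv/ev mice from 344SQ, a lung adenocarcinoma cell line of the mouse. Parental tumours (Sen) came from the 344SQ line itself and resistant tumours (Res) from a derivative line resistant to anti-PD-1 (an antibody to a receptor that restrains T cells). In each line, mice received either control IgG or anti-PD-1 (PD1) at 10 mg/kg on days 4 and 7, and tumours were taken on day 11. The 4 groups are therefore parental tumours under IgG, parental tumours under anti-PD-1, resistant tumours under IgG and resistant tumours under anti-PD-1. The labels give 5 mice per group without tying mice to arrays, so p-values here reflect the spread between arrays, which may be technical. A whole tumour also holds host cells, and in such bulk RNA fewer cells of a type and less RNA per cell cannot be told apart.

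HIF is a transcription factor made of an alpha subunit, which prolyl hydroxylases mark for destruction while oxygen is plentiful, and a stable partner. When oxygen falls, the alpha subunit accumulates and the complex switches on genes for glucose uptake, glycolysis, vessel growth, acid export and collagen processing. Tumours often run these genes at a high level even with oxygen present, and HIF1A and EPAS1 (HIF-2 alpha) are regulated mainly as proteins, which arrays of RNA do not measure.

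HIF binds the core ACGTG or GCGTG, so the promoters of the members were searched for it. RefSeq promoter entries on GRCm38.p6 were at hand for 30 members, 27 of them tested; Slc2a3, Bnip3l, Ndrg1 and Epas1 had none. In the 250 bases before the start site, ACGTG on either strand was found in 21 of 40 member entries (52.5%), against 16.6% of all 32851 entries. With GCGTG added, the shares were 82.5% and 38.6%. The sequence CACGTG reads as ACGTG on both strands and was counted on each. The following 6 upstream windows are examples from members that differed between the lines. Each is written 5′ to 3′ on the strand of the gene, with ACGTG on either strand (ACGTG or CACGT as printed) in capitals. Slc16a3 and Egln3 were called only under anti-PD-1, and Ldha only under IgG. Car9 and Ldha are members that were higher in resistant tumours, and Hk2, Slc16a3, Egln3 and Car12 are members that were lower.
Car9, chr4:43506776-43507025, plus strand: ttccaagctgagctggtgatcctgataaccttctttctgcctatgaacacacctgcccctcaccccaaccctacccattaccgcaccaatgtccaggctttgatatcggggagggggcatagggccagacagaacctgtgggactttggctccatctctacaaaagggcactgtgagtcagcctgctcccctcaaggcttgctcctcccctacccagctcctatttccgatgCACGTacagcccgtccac
Ldha, chr7:46845554-46845803, plus strand: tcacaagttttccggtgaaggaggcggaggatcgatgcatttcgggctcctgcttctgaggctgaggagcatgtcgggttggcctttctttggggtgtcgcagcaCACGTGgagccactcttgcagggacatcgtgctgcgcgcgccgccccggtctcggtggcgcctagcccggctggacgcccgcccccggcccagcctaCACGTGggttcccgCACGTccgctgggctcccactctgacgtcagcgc
Hk2, chr6:82774455-82774704, minus strand: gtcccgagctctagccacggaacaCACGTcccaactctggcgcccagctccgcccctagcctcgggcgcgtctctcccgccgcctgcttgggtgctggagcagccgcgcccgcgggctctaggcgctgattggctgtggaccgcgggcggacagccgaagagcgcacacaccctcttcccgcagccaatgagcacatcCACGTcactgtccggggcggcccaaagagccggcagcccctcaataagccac
Slc16a3, chr11:120948817-120949066, plus strand: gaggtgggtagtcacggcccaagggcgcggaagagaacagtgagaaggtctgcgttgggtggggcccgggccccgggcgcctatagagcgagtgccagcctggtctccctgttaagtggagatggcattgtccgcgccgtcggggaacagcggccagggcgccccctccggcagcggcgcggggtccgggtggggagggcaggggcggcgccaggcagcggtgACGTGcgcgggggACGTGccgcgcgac
Egln3, chr12:54203875-54204124, minus strand: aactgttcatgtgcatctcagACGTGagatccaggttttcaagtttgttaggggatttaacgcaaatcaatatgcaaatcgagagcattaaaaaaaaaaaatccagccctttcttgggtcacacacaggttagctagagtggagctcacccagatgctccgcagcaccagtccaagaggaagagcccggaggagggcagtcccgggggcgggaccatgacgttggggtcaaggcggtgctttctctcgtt
Car12, chr9:66713436-66713685, plus strand: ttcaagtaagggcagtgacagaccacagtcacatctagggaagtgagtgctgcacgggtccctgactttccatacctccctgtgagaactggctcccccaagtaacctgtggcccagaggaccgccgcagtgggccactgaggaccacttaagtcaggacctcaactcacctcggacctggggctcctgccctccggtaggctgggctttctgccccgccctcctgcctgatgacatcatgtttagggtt
The Ldha window shown held 5 matches, in 2 CACGTG palindromes and 1 single match. Hk2 and Slc16a3 held 2 each, Car9 and Egln3 held 1 each, and Car12 held none. The other Ldha entry held no ACGTG and is not shown. The same holds for the entries of Tpi1 and Pfkfb4, which were called lower in both line comparisons. The Car9 match lay 18 bases before the start site and the Egln3 match 229 bases before it. ACGTG was present in 9 of 12 genes with an entry that were lower in resistant tumours under anti-PD-1, and in 9 of 14 tested genes that were not called there. These matches are letters in a window and were not measured as binding sites.

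The labelled tumour type was checked first. Epithelial markers (11 genes, among them Epcam, Cdh1 and Krt8) had mean levels of 8.46 to 9.71 on the 12 arrays, well above the filter level of 3.32. Only markers that passed that filter enter these means. Arrays correlated at 0.959 to 0.997 over all probe sets. The third array of parental tumours under anti-PD-1 stood apart for these genes: it was the highest of the 12 for 20 of the 30 members, against 16.6% of all genes, and Slc2a3 tied for highest there. On the same array the mean level of 19 skeletal muscle markers was 10.98, that of 12 fibroblast markers 10.17, of 12 macrophage markers 9.26, of 6 neutrophil markers 7.13 and of 12 endothelial markers 7.12, each the highest of all arrays for its list.

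Under control IgG, the question is how the resistant tumours differ from the parental tumours without checkpoint blockade. Of the 30 members, 7 changed (23.3%), against 16.2% of all genes tested: 5 were lower in resistant tumours and 2 higher. Hexokinase Hk2, triose phosphate isomerase Tpi1, the flux kinases Pfkfb4 and Pdk1, and the carbonic anhydrase Car12 were lower; lactate dehydrogenase Ldha and the carbonic anhydrase Car9 were higher. For all genes the shares were 7.31% lower and 8.93% higher. The resistant arrays lay wholly below the parental arrays for 8 members (against 15.2% of all genes) and wholly above for 5 (against 23.6%). The median difference was -0.060 over the 16 glycolytic genes and -0.23 over the 12 other hypoxia targets, beside 0.067 over all genes; with the probe set of highest variance standing for each gene they were -0.21 and -0.11, and with the mean of all probe sets -0.033 and -0.068.

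Hk2, which traps glucose in the cell as glucose 6-phosphate, stood at 9.73, 9.59 and 9.73 in parental and at 8.80, 8.43 and 9.12 in resistant tumours under IgG. All resistant arrays lay below all parental arrays, a difference of -0.90 (SE 0.22, adjusted p = 0.0181), or 1.87-fold. Tpi1, which interconverts the products of the aldolase step, stood at 12.11, 11.94 and 12.03 in parental and at 11.53, 11.71 and 11.63 in resistant tumours. The groups did not overlap, with a difference of -0.40 (SE 0.088, adjusted p = 0.0124). Ldha, which turns pyruvate into lactate, was read at 12.07, 12.05 and 12 in parental and at 12.31, 12.27 and 12.29 in resistant tumours. This is a small gap of 0.25 (SE 0.063, adjusted p = 0.0221) between tightly grouped arrays. The other 7 tested enzymes, Pfkl, Pfkp, Aldoa, Aldoc, Pgk1, Pgam1 and Pkm, did not pass the test, with differences of -0.13 for Pgam1 to 0.41 for Pfkp. Further probe sets of Pfkp differed by 1.05 and -0.21, and those of Pfkl by 0.29 and -0.48.

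Among the kinases, Pfkfb4 makes and degrades fructose 2,6-bisphosphate, the activator of phosphofructokinase. Its levels under IgG were 6.71, 7.04 and 6.54 in parental and 6.10, 6.27 and 6.32 in resistant tumours, without overlap, and differed by -0.53 (SE 0.13, adjusted p = 0.0228). Pdk1, which switches off pyruvate dehydrogenase and so keeps pyruvate from the mitochondria, stood at 9, 9.09 and 9.03 in parental and at 8.59, 8.75 and 8.73 in resistant tumours. Its difference was -0.35 (SE 0.10, adjusted p = 0.0415), the one nearest the threshold of 0.05 among these calls. The related kinase Pfkfb3 differed by -0.21 and was not called. None of the 3 transporters passed: the glucose carriers Slc2a1 (GLUT1) and Slc2a3 (GLUT3) differed by 0.093 and -0.31, and the lactate exporter Slc16a3 (MCT4) by -0.36 (adjusted p = 0.0766).

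The 2 carbonic anhydrases went opposite ways. Both are enzymes of the cell surface that hydrate carbon dioxide and help cells rid themselves of acid. Car9 stood at 8.42, 7.62 and 7.94 in parental and at 9.50, 9.14 and 9.34 in resistant tumours, higher by 1.33 (SE 0.26, adjusted p = 0.00708), or 2.52-fold. Car12 stood at 6.53, 6.13 and 6.47 in parental and at 5.09, 5.10 and 4.90 in resistant tumours, a difference of -1.35 (SE 0.14, adjusted p = 0.000323), or 2.54-fold lower. Neither pair of groups overlapped. With the mean over all of its probe sets, 1 of which was dim and pointed the other way, the Car12 difference shrank to -0.41 and stayed called (adjusted p = 0.023).

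The other 10 hypoxia targets were not called under IgG. Egln3, a HIF prolyl hydroxylase that is itself induced by HIF, differed most, by -0.58 (adjusted p = 0.125), with no overlap of arrays. Adm, a vessel-dilating peptide, differed by 0.50, the stress gene Ddit4, which restrains mTOR, by -0.49, and the vessel growth factor Vegfa by -0.39. The other probe set of Vegfa pointed the other way (0.18). Neither HIF alpha gene was called, with differences of 0.20 for Hif1a and 0.16 for Epas1. The count of 7 rests on few arrays: it was 4 without the third parental array, 2 without the first resistant array and 3 without the second resistant array under IgG. Car9 and Car12 kept their calls whichever of the 12 arrays was left out.

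**Figure D1:**
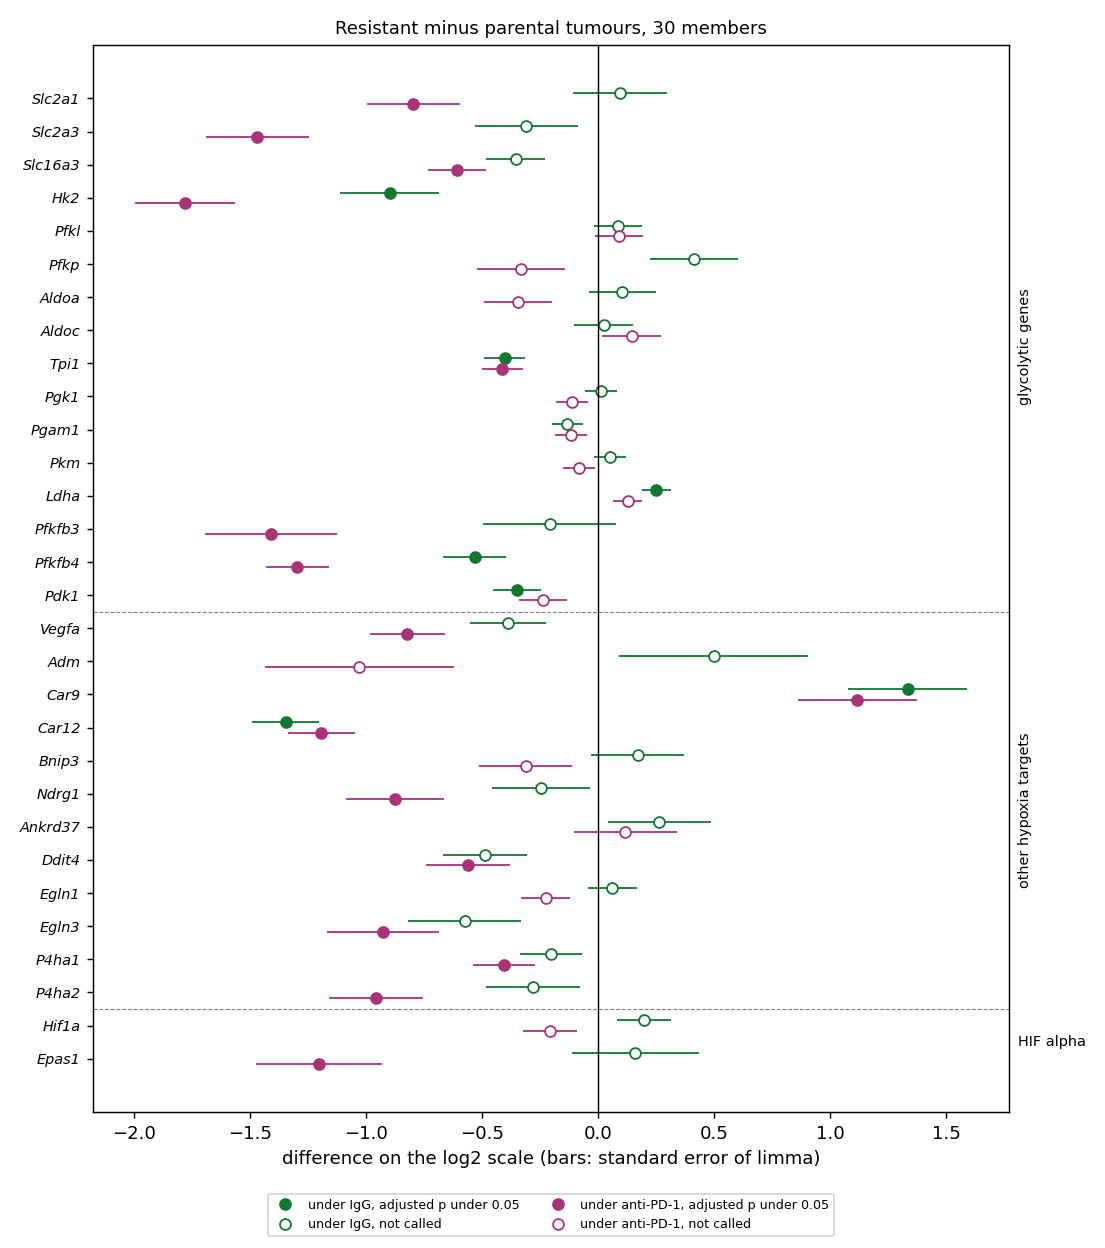
Log2 difference of resistant minus parental tumours for each tested member, under IgG (green) and under anti-PD-1 (purple), with bars of 1 standard error from limma and 3 arrays per group; filled points passed the test. Under IgG 7 members were called and under anti-PD-1 16; Car9 lies to the right in both comparisons, and Hk2, Pfkfb4 and Car12 lie far to the left in both.

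Under anti-PD-1 the same lines differed in more of the members. Of the 30, 16 changed (53.3%), against 33.5% of all genes: 15 were lower in resistant tumours (50%, against 11.9% of all genes) and 1, Car9, was higher (against 21.6% of all genes). All 3 transporters, Hk2, Tpi1, both Pfkfb kinases, 7 hypoxia targets and Epas1 were lower. The median difference was -0.34 over the glycolytic genes and -0.69 over the other hypoxia targets, beside 0.073 over all genes. With the probe set of highest variance the glycolytic median was -0.61, and with the mean of all probe sets the median of the hypoxia targets was -0.45. The resistant arrays lay wholly below for 18 members (against 15.8% of all genes) and wholly above for 2, Car9 and Ldha (against 29.9%). The plot of line differences shows the anti-PD-1 points shifted to the left of the IgG points for most members. Of the 30 members, 23 differed by more under anti-PD-1 than under IgG. The matching share of all genes was not computed, and calls over all genes also rose, from 16.2% under IgG to 33.5% under anti-PD-1.

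Transcripts of the 3 carriers among the members were lower in resistant tumours. Slc2a1 stood at 10.81, 11.07 and 11.49 in parental and at 10.59, 10.21 and 10.18 in resistant tumours under anti-PD-1, a difference of -0.80 (SE 0.20, adjusted p = 0.0115). Slc2a3 stood at 6.71, 7.22 and 7.22 in parental and at 5.69, 5.30 and 5.75 in resistant tumours, a difference of -1.47 (SE 0.22, adjusted p = 0.000747), or 2.77-fold. For both carriers every resistant array was below every parental one. Slc16a3, at 5.70, 5.91 and 6.26 against 5.26, 5.38 and 5.40, was lower by 1.53-fold, a difference of -0.61 (adjusted p = 0.00415). The Slc2a3 value depends on the probe set, since 2 dim ones of its 4 pointed the other way, and the mean over all 4 gave -0.59 (adjusted p = 0.00839).

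The largest difference of any member was that of Hk2. Its levels were 9.57, 10.20 and 10.49 in parental and 8.26, 8.39 and 8.26 in resistant tumours under anti-PD-1, a difference of -1.78 (SE 0.22, adjusted p = 0.000244), or 3.44-fold. The parental arrays spread over nearly 1 log2 unit, and the lowest of them still exceeded the highest resistant array. Tpi1 differed by -0.41 (adjusted p = 0.00493), much as under IgG. The other 8 enzymes were not called: Aldoa, the aldolase of muscle, differed by -0.35 (adjusted p = 0.0884), Pfkp, a phosphofructokinase, by -0.33, and Pfkl, Aldoc, Pgk1, Pgam1, Pkm and Ldha by -0.12 to 0.14. Ldha, called under IgG, differed by 0.13 here (adjusted p = 0.143). Values for Pfkp and Pfkl depended on the probe set. The other probe sets of Pfkp differed by 0.50 and -1.26, and those of Pfkl by 0.37 and -1.05.

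Pfkfb3 and Pfkfb4 were lower in resistant tumours under anti-PD-1, while Pfkfb2, a related kinase that is no member, was not called (-0.30, adjusted p = 0.22). Pfkfb3, the form with the strongest kinase activity, stood at 6.45, 7.34 and 7.89 in parental and at 5.91, 5.55 and 5.99 in resistant tumours, a difference of -1.41 (SE 0.29, adjusted p = 0.00369). With the mean over its probe sets this was -0.71 (adjusted p = 0.0274). Pfkfb4 stood at 7.34, 7.27 and 7.65 in parental and at 6.08, 6.13 and 6.16 in resistant tumours, a difference of -1.30 (SE 0.13, adjusted p = 0.000126). The Pfkfb4 groups were more than 1 log2 unit apart with little spread in either. Pdk1 differed by -0.24 (adjusted p = 0.0959).

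The 7 other hypoxia targets that were lower cover several roles. Vegfa was at 8.74, 8.74 and 9.19 in parental and at 8.06, 8.12 and 8.02 in resistant tumours, lower by 1.77-fold, a difference of -0.82 (adjusted p = 0.00327). Ndrg1, a stress-induced gene of differentiation, was at 10.58, 10.56 and 11.36 against 10.09, 9.67 and 10.11, a difference of -0.88 (adjusted p = 0.00943). Egln3 was at 9.54, 9.18 and 9.80 against 8.96, 8.14 and 8.64, a difference of -0.93 (adjusted p = 0.0135). In all 3 the groups did not overlap. The collagen prolyl hydroxylase subunits P4ha2 and P4ha1, which modify collagen so that its helix holds, differed by -0.96 (adjusted p = 0.00471) and -0.41 (adjusted p = 0.0374), and Ddit4 by -0.56 (adjusted p = 0.0349). The P4ha1 call held in only 5 of the 11 alternatives other than leaving out 1 array. It was lost with the mean of all probe sets and with the probe set of highest variance.

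The pattern of the carbonic anhydrases was the same as under IgG. Car9 stood at 7.73, 8.52 and 7.75 in parental and at 9.27, 8.72 and 9.36 in resistant tumours, higher by 1.12 (SE 0.26, adjusted p = 0.0073). Car12 stood at 6.23, 6.33 and 6.34 against 5.24, 5.30 and 4.78, a difference of -1.19 (SE 0.14, adjusted p = 0.000253), which was -0.34 (adjusted p = 0.0283) with the mean over its probe sets. Of the alpha subunits, Epas1, prominent in vessels and macrophages, stood at 8.35, 8.58 and 9.54 against 7.51, 7.77 and 7.58, a difference of -1.20 (SE 0.27, adjusted p = 0.00666), and -0.62 (adjusted p = 0.00721) with the mean over its probe sets. Hif1a differed by -0.21 and was not called. Adm (-1.03, adjusted p = 0.0729), the mitophagy receptor Bnip3 (-0.31), Egln1, the main prolyl hydroxylase of HIF alpha (-0.23), and Ankrd37 (0.12) were not called either.

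Of these 16 calls, 3 were lost with some single array left out. Ddit4 was lost without any 1 of the 6 arrays under anti-PD-1, with its difference at -0.54 to -0.58. P4ha1 was lost without any 1 of 5 of them, the exception being the second parental array, and Egln3 without the second resistant array (-0.71, adjusted p = 0.0539). Without the third parental array, the one that stood apart, 14 members were called, and the medians were -0.23 for the glycolytic genes and -0.51 for the hypoxia targets. The first parental array under IgG also stood apart from its group, with muscle markers at 6.21 against 10.30 and 9.36 on the other arrays. Muscle markers were also low on the first resistant array under anti-PD-1, at 5.74 against 8.56 and 7.94. Adipocyte markers were high on the second resistant array under IgG, at 8.27 against 5.86 and 6.24. These resistant arrays were left out only singly. One further fit left out the first parental array under IgG and the third under anti-PD-1, below called both arrays that stand apart. In it 13 members were called, with Ddit4, P4ha1 and Egln3 (-0.78, adjusted p = 0.0553) lost. The other 13 of the 16 kept their call whichever single array was left out.

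**Figure D2:**
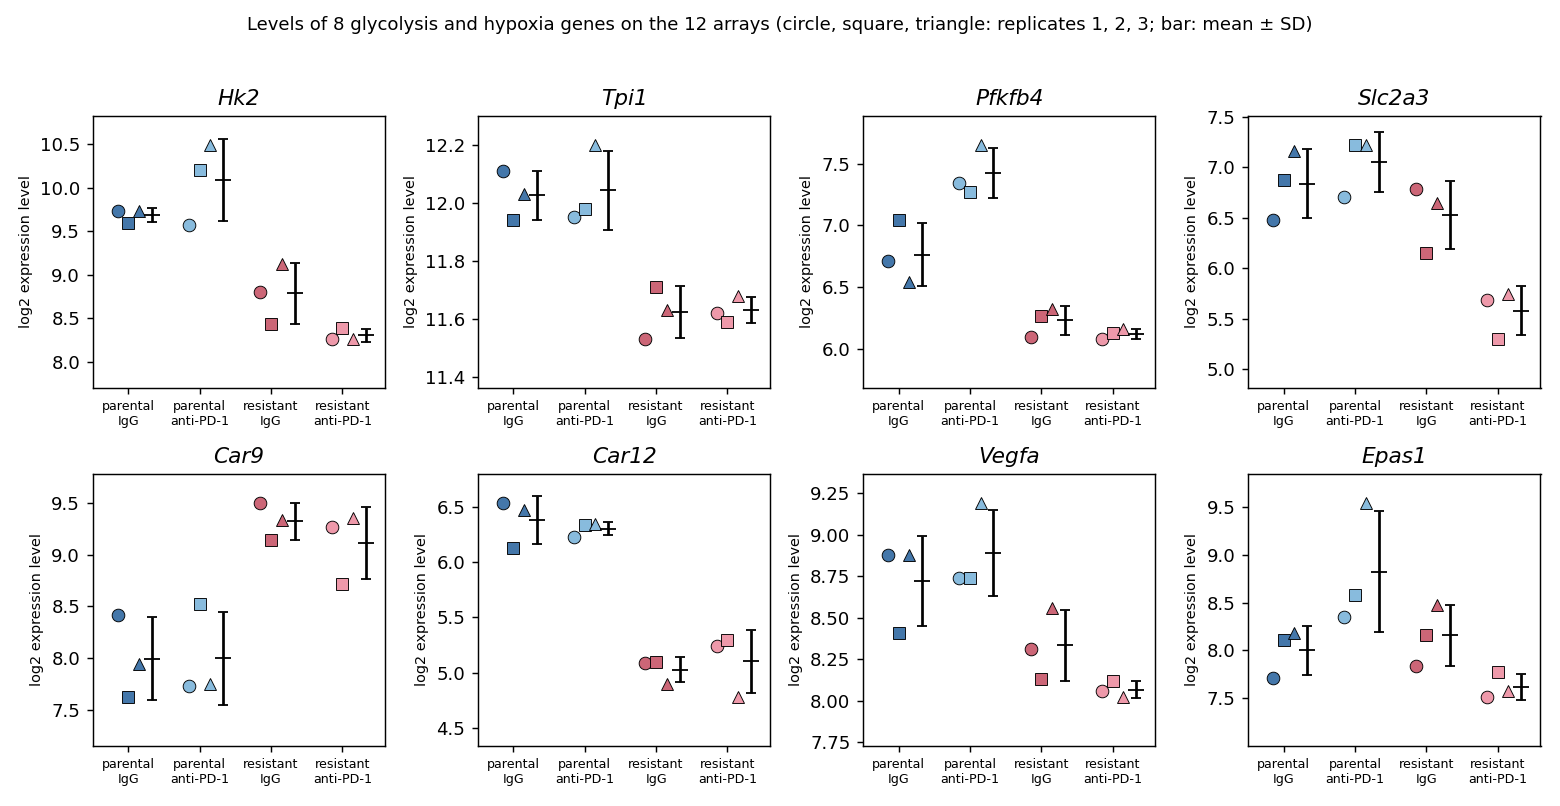
Log2 level of 8 members on each of the 12 arrays, by group, with a point per array and bars of the group mean ± SD. Car9 is higher on all 6 resistant arrays (8.72 to 9.50) than on all 6 parental arrays (7.62 to 8.52), and Hk2 is lower on all 6 resistant arrays (8.26 to 9.12) than on the parental ones (9.57 to 10.49).

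The differences between the lines under IgG and under anti-PD-1 share no array, and their calls are set side by side here. The calls are not independent, because both comparisons came from the same fit on all arrays. That fit used a shared estimate of the spread between arrays for each gene. Hk2, Tpi1, Pfkfb4, Car9 and Car12 were called in both, 71.4% of the 7 calls under IgG and 31.2% of the 16 under anti-PD-1, each with the same sign. Over all genes the shares were close to these, 67.7% of the calls under IgG and 32.9% of those under anti-PD-1, so the members' overlap is near the background; 6.27% of genes tested were called higher in both and 4.73% lower in both. With all 6 resistant arrays set against all 6 parental arrays, 2 members lay wholly above (Ldha and Car9, against 11.2% of all genes) and 7 wholly below (Slc16a3, Hk2, Tpi1, Pgam1, Pfkfb4, Car12 and Egln3, against 6.65%). The levels by array show these separations for Car9 and Hk2.

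Chromosomes with many altered genes hold some of these members. Hk2, Tpi1 and Slc2a3 lie on chromosome 6, where 17.8% of 802 other genes were lower in resistant tumours under IgG, against 7.29% of all placed genes that are no members; under anti-PD-1 the shares were 17.6% and 11.8%. Car9 lies on chromosome 4, where 16.4% of 943 other genes were higher under IgG, against 8.94% of all placed genes, and Slc2a1, lower under anti-PD-1, lies there too. Ndrg1 lies on chromosome 15, where 21.5% of other genes were lower under anti-PD-1. Egln1 and Ankrd37 lie on chromosome 8, where 45.1% of genes were higher under anti-PD-1, and neither was called. Pfkfb4 and Car12 lie on chromosome 9, where 6.29% of genes were lower under IgG. The part of chromosomal position in the members' differences was not tested.

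Markers of host cells were read in the same line comparisons. Under anti-PD-1, 11.9% of all genes were called lower in resistant tumours and 21.6% higher. Under IgG the shares were 7.31% and 8.93%. The mean level of 19 skeletal muscle markers was 9.08, 9.62 and 10.98 in parental and 5.74, 8.56 and 7.94 in resistant tumours under anti-PD-1; 4 of the 19 were called lower, and none was called under IgG. Under IgG, 2 of 12 macrophage, 2 of 12 endothelial, 3 of 12 fibroblast and 1 of 8 adipocyte markers were called higher in resistant tumours, and 1 of 8 T cell markers lower. Of 12 macrophage, 6 neutrophil and 12 endothelial markers, 1 in each list was called lower in resistant tumours under anti-PD-1, as were 2 of 12 fibroblast markers and 3 of 8 T cell markers. Of 8 adipocyte markers 0 were called there. Counts of 1 or 2 in a list are near the share of all genes called lower. Of 11 epithelial markers, 3 were called lower and none higher under IgG, and 3 lower and 1 higher under anti-PD-1. Each list had a mean above the filter level on all arrays, which follows largely from keeping only markers that passed that filter. The part of these cells in the members' differences was not tested.

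In parental tumours, anti-PD-1 was compared with IgG to ask what the antibody does in the line that is not resistant to it. Pfkfb4 alone of the 30 members changed (3.33%), against 3.5% of all genes (1.23% higher and 2.27% lower). It rose from 6.71, 7.04 and 6.54 under IgG to 7.34, 7.27 and 7.65 under anti-PD-1, by 0.66 (SE 0.13, adjusted p = 0.034), or 1.58-fold, with no overlap. Its call was lost in 8 of the 12 fits that left out 1 array, with the difference at 0.54 to 0.80.

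Most of the remaining members were higher under the antibody without passing the test. The sign was positive for 25 of the 30, against 7507 of all 15493 genes. By limma 8 members had an unadjusted p under 0.05, against 21.9% of all genes. Epas1 differed by 0.82 (adjusted p = 0.116), Pfkp by 0.60 (adjusted p = 0.102), Ndrg1 by 0.48, Slc2a1 by 0.44 and Hif1a by 0.33. Pdk1 differed by -0.28 and was the only member whose arrays under anti-PD-1 all lay below those under IgG, against 13.4% of all genes; for 8 members they all lay above, against 9.12%. The median difference was 0.13 over glycolytic genes and 0.21 over the other hypoxia targets, beside -0.007 over all genes. Without the third array under anti-PD-1 these medians were 0.053 and 0.065. Muscle markers averaged 8.62 (SD 2.14, n = 3) under IgG and 9.89 (SD 0.98, n = 3) under anti-PD-1 in these tumours. Endothelial markers averaged 5.84 (SD 0.22, n = 3) and 6.51 (SD 0.53, n = 3), fibroblast markers 9 (SD 0.31, n = 3) and 9.37 (SD 0.70, n = 3), macrophage markers 8.40 (SD 0.23, n = 3) and 8.70 (SD 0.61, n = 3), and adipocyte markers 5.25 (SD 0.48, n = 3) and 5.99 (SD 0.64, n = 3). No gene of these lists was called, and their part in the members' values, Epas1 included, was not tested.

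In resistant tumours no gene was called between anti-PD-1 and IgG by limma (0 of 15493, 0%), and so no member. At an unadjusted p under 0.05 there were 5 members, Slc2a1, Slc2a3, Hk2, Pfkfb3 and Adm, and 738 genes (4.76%). All 5 differences were negative. Slc2a3 stood at 6.78, 6.15 and 6.65 under IgG and at 5.69, 5.30 and 5.75 under anti-PD-1, a difference of -0.95 (SE 0.22, adjusted p = 0.896). Pfkfb3 stood at 6.57, 6.67 and 6.90 against 5.91, 5.55 and 5.99, a difference of -0.90 (adjusted p = 0.896). Both values depend on the probe set. The other probe set of Pfkfb3 differed by 0.043, and those of Slc2a3 by 0.16 and -0.047 (both dim) and -0.65. Adm stood at 7.50, 7.00 and 7.53 against 6.36, 6.28 and 6.17, a difference of -1.07 (adjusted p = 0.896).

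All arrays of the 3 genes just given were lower under anti-PD-1 than under IgG in resistant tumours, as they were for 10 of the 30 members, against 5.39% of all genes. No member lay wholly above, against 8.82%. The sign was negative for 24 of the 30, against 6326 of all 15493 genes. Medians were -0.13 for glycolytic genes and -0.17 for other hypoxia targets beside 0.030 for all genes. Leaving out 1 array took the first to -0.057 (without the third array under IgG) and the second to -0.085 (without the second array under anti-PD-1). Muscle markers averaged 8.90 (SD 0.50, n = 3) under IgG and 7.42 (SD 1.48, n = 3) under anti-PD-1, adipocyte markers 6.79 (SD 1.29, n = 3) and 5.69 (SD 0.40, n = 3), neutrophil markers 6.24 (SD 0.41, n = 3) and 5.45 (SD 0.44, n = 3), fibroblast markers 9.66 (SD 0.24, n = 3) and 9.14 (SD 0.19, n = 3), and endothelial markers 6.55 (SD 0.29, n = 3) and 6.205 (SD 0.21, n = 3). No gene of these lists was called, and their part was not tested.

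**Figure D3:**
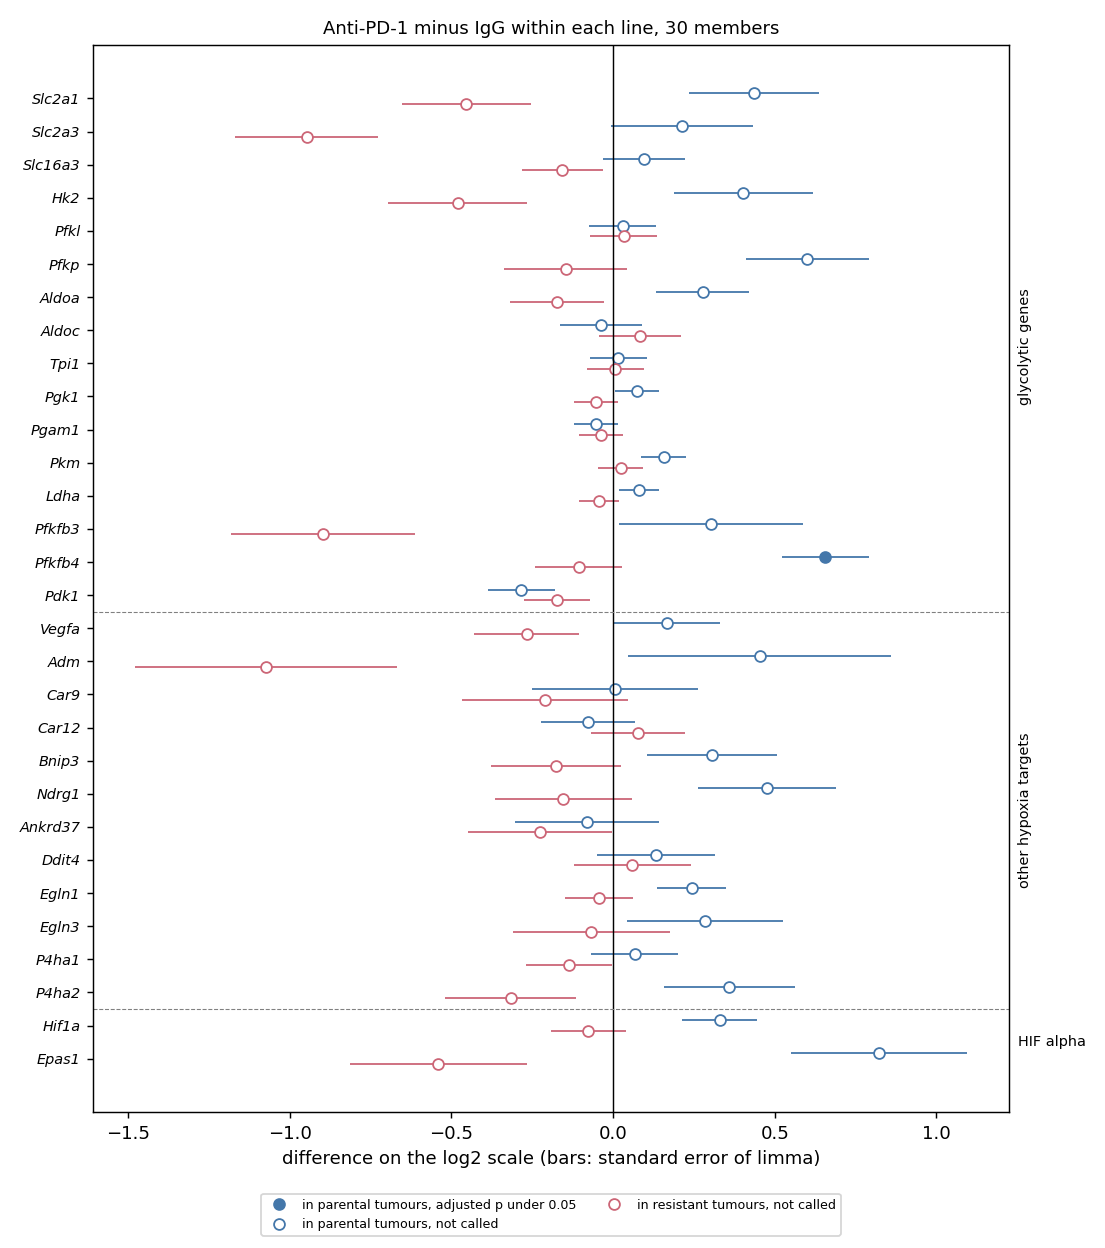
Log2 difference of anti-PD-1 minus IgG for each tested member, in parental and in resistant tumours, with bars of 1 standard error from limma and 3 arrays per group. In parental tumours 25 of the 30 differences are above 0, against 7507 of all 15493 genes, and Pfkfb4 was called. In resistant tumours 24 of the 30 are below 0, against 6326 of all 15493 genes, and none was called.

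Whether the antibody's effect differs between the lines is asked by the interaction, the antibody difference in resistant minus that in parental tumours. By limma it was called for 0 members and 0 genes (0%), while 10 of the 30 members and 17.5% of all genes had an unadjusted p under 0.05. The interaction was negative for 25 members, against 7000 of all 15493 genes. Its largest values were -1.53 (SE 0.57, adjusted p = 0.221) for Adm, -1.36 (SE 0.39, adjusted p = 0.164) for Epas1, -1.20 (adjusted p = 0.195) for Pfkfb3 and -1.16 (adjusted p = 0.155) for Slc2a3. Pfkfb4, at -0.76 (SE 0.19), had the smallest adjusted p of the members, 0.143. The opposite signs seen in the plot of antibody differences are therefore not shown to differ for any single gene.

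The level of the members over the 12 arrays shows where the extremes lie. Arrays of parental tumours under anti-PD-1 were the highest for 21 of the 30 members, against 30.2% of all genes, and 20 of these were on the third array. Arrays of resistant tumours under anti-PD-1 were the lowest for 19, against 13.8% of all genes, and these were spread over the 3 arrays as 6, 7 and 6. Over the 16 glycolytic genes the mean level was 9.52, 9.72 and 9.93 on the parental and 9.20, 9.12 and 9.22 on the resistant arrays under anti-PD-1; under IgG it was 9.49, 9.54 and 9.58 against 9.38, 9.32 and 9.50. The third parental array under anti-PD-1 thus gives the highest values, and the low values in resistant tumours under anti-PD-1 are common to all 3 arrays.

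**Figure D4:**
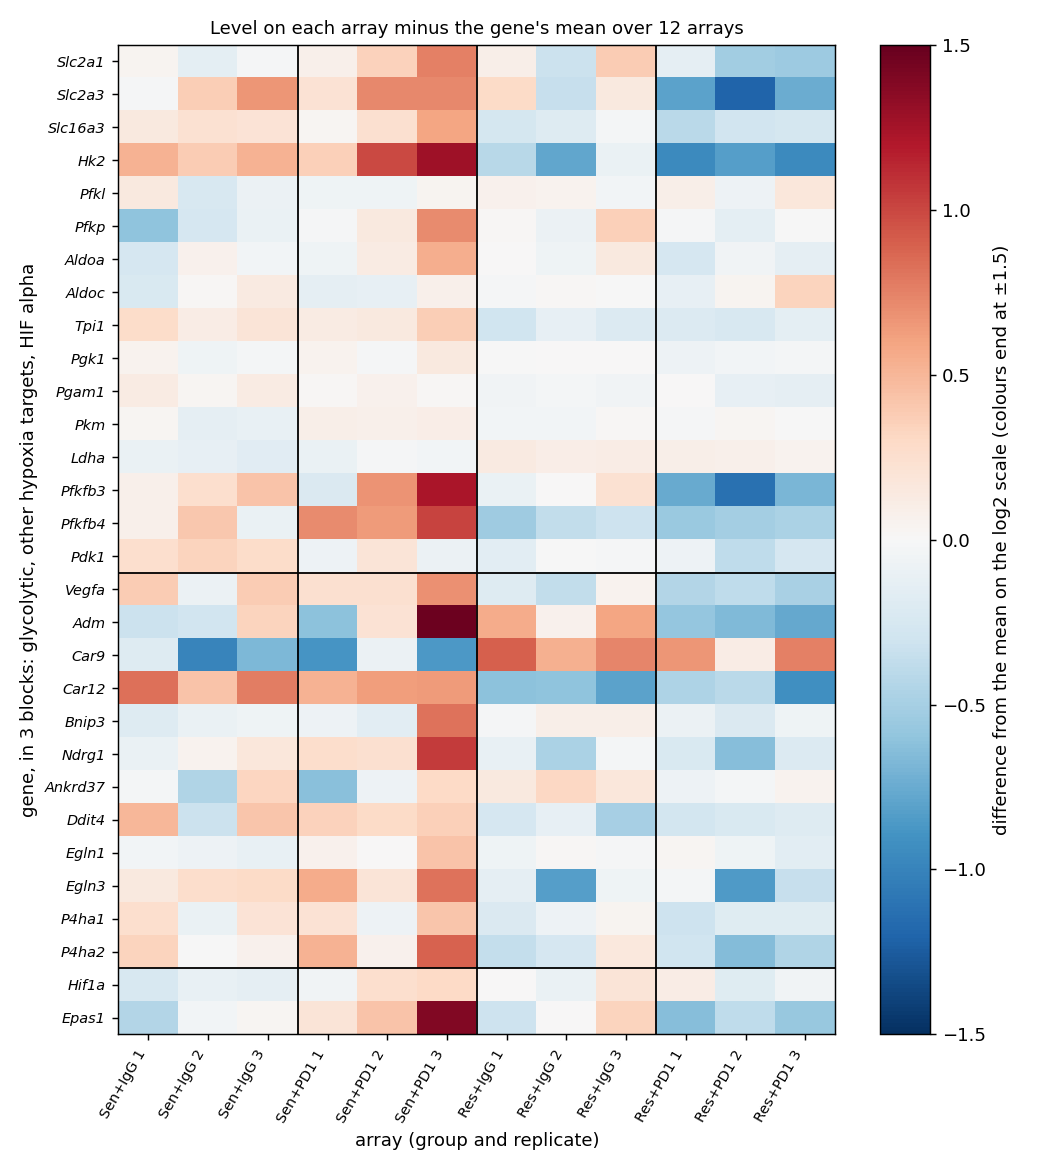
Log2 level of each tested member on each of the 12 arrays, minus the mean of that member over the 12 arrays, with members in rows by role and arrays in columns by group; blue is below and red above the mean. The third parental array under anti-PD-1 is the highest for 20 of the 30 members, and the 3 resistant arrays under anti-PD-1 hold the lowest value of 19.

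Gapdh, the glycolytic dehydrogenase and a common loading control, was read only through control probe sets placed along its transcript. Near the 3′ end its level was 12.92 to 13.11 on parental and 12.73 to 12.88 on resistant arrays, without overlap. Of all genes, 6.65% lay wholly below in this way. In the middle the parental arrays, at 12.65 to 12.92, and the resistant arrays, at 12.55 to 12.67, overlapped. Near the 5′ end the parental arrays, at 12.58 to 12.92, and the resistant arrays, at 12.66 to 12.84, overlapped. The 3′ minus 5′ difference, which also follows RNA quality, was 0.26 (SD 0.096, n = 6) in parental and 0.035 (SD 0.052, n = 6) in resistant tumours. It moved with the line, as did the members called in both comparisons, and its part in their differences was not tested.

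Further genes of the same pathways were taken from lists of other isoforms and neighbouring steps. In the glycolysis list 27 of 34 genes were tested. Under IgG 3 were higher in resistant tumours and 3 lower: Dlat, a subunit of pyruvate dehydrogenase, differed by 0.56, and Hkdc1, a hexokinase-like protein, by -1.58 (adjusted p = 0.000246). These are shares of 11.1% each, against 8.93% and 7.31% of all genes. Under anti-PD-1 6 were higher (22.2%, against 21.6% of all genes) and 6 lower (22.2%, against 11.9%), so the share of higher calls is near the background. The higher ones were the pyruvate dehydrogenase subunits Pdha1 (0.34) and Dlat (0.40), Pdk3 (0.52), a kinase that inhibits that enzyme, the mitochondrial pyruvate carrier Mpc1 (0.82), Ldhc (0.44) and Pklr (0.27); the subunit Pdhb was not called (0.030, adjusted p = 0.751). The lower ones included the hexokinases Hk1 (-0.63, adjusted p = 0.000277), Hk3 (-0.71) and Hkdc1 (-1.56), the muscle phosphofructokinase Pfkm (-1.05) and glycogen synthase Gys1 (-0.95). Among genes not called, Pygm differed by -2.50, Pgam2 by -1.84, Pdk4 by -1.36, Eno3 by -0.68 and Ldhb by -0.15. The part of muscle fibres in these values was not tested. The carriers Slc16a1 (0.11, adjusted p = 0.642), Slc2a4 (-0.42, adjusted p = 0.263) and Slc2a8 (-0.23, adjusted p = 0.0772) were not called. No gene of the list was called for the antibody in either line.

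In the list of further hypoxia genes 28 of 30 were tested. Under IgG 2 were higher in resistant tumours, the collagen crosslinking enzyme Lox (1.19, adjusted p = 0.0302) and the lipase inhibitor Angptl4 (0.74), and 4 were lower, among them the repressor Bhlhe40 (-0.83), the histone demethylase Kdm3a (-0.76) and the transferrin receptor Tfrc (-0.63). The shares were 7.14% higher and 14.3% lower. For Tfrc the other probe sets, also above the filter level, pointed the other way under IgG (0.13 and 0.19). Under anti-PD-1 none was higher (against 21.6% of all genes) and 11 were lower (39.3%, against 11.9%), with Bhlhe40 at -1.21, Kdm3a at -1.04, the chemokine receptor Cxcr4 at -1.31, the lipid droplet protein Hilpda at -0.89, the disulfide oxidase Ero1a at -0.91 and Arnt, the stable partner of the HIF alpha subunits, at -0.60. Arnt was also the only gene of this list called for the antibody in parental tumours, where it rose by 0.47 (adjusted p = 0.034). None was called in resistant tumours.

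Centring each array on its median, in place of the scale as deposited, moved the median of all genes between the lines from 0.067 to 0.12 under IgG and from 0.073 to 0.18 under anti-PD-1. The split of all calls went from 1384 higher and 1133 lower to 2111 and 889 under IgG, and from 3343 and 1843 to 5074 and 1299 under anti-PD-1. Of the members, 6 were then called under IgG (2 higher, 4 lower) and 15 under anti-PD-1 (2 higher, 13 lower), and no called difference changed sign.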

How the data were processed

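Total RNA of whole tumours was labelled with biotin and hybridized to Affymetrix mouse arrays, per the labels' protocols. The authors deposited log2 expression values, given to 2 decimals; their background correction, normalization and summarization are not given in the sources used here. Near-equal quantiles on all 12 arrays point to normalization between arrays, and no 2 arrays were identical (0 pairs).

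Of 45101 probe sets, only those naming 1 gene (34945) were used, and the one with the highest mean stood for its gene. Genes with at least 3 arrays above the 25th percentile (3.32) were kept, 15493 of 18193. The fit used limma (version 3.58.1, in R 4.3.3) on all 12 arrays, with a mean for each group and 5 contrasts. Two-sided p-values were adjusted over all genes tested by the Benjamini-Hochberg method and called under 0.05. The number of arrays limits the precision, and the median SE of a difference was 0.117. The code was tested on simulated data.

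The members and lists were chosen with earlier results of these data known. Members with values given were those called, plus those with the largest differences. Promoter windows came from RefSeq (GRCm38.p6), as did chromosomes. Arrays are numbered 1 to 3 in each group. Between resistant tumours under IgG and under anti-PD-1 the deviations of same-numbered arrays correlated at 0.11 to 0.17. Between parental tumours under IgG and under anti-PD-1 they correlated at 0.64, 0.057 and 0.44. The labels do not say that arrays of the same number are pairs. The main fit therefore used no pairs, and the number entered only as a block in an alternative. Alternatives covered the probe set rule, filter, scaling, array weights, prior variance, groups fitted, the replicate block and each array left out.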

Additional observations from a re-analysis of the deposited data

How the results depend on the processing

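No called difference changed sign under any alternative run (0 reversed); the glycolytic median between the lines under IgG, -0.060, ran from -0.21 to 0.013. Of 24 called member differences, 15 kept their call with each single array left out, and 18 did under every other alternative. Members called between the lines numbered 2 to 8 under IgG and 13 to 16 under anti-PD-1 with 1 array left out, and 6 to 9 and 13 to 18 under the other alternatives. For anti-PD-1 in parental tumours the count of 1 became 0 to 1 with an array left out, 0 with only the groups compared in the fit, 0 without both arrays that stand apart, and 3 with the replicate number as a block, where Pfkp (0.60, adjusted p = 0.0412) and Epas1 (0.82, adjusted p = 0.0463) were added to Pfkfb4. The interaction gave 0 to 1 with an array left out, Pfkfb3 (-1.59, adjusted p = 0.0463) being called without the first parental array under anti-PD-1. In resistant tumours no alternative called a member (0).

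Deviations of same-numbered arrays correlated at -0.21 to 0.64 over the group pairs, above 0.1 for 14 of 18. The replicate block also called Egln3 between the lines under IgG (adjusted p = 0.0424), lost Pdk1 there (adjusted p = 0.055) and added Adm (-1.03, adjusted p = 0.0452) under anti-PD-1; it changed no call of a member in resistant tumours. Counts of all genes called moved more than those of members: between the lines under IgG, 1273 to 3483 with an array left out and 5152 with array weights, beside 2517; for anti-PD-1 in parental tumours, 9 to 711 with an array left out, 0 with only the groups compared, 100 without both arrays that stand apart and 918 with array weights, beside 542; in the interaction, up to 78 with an array left out, 3 with the block and 121 with array weights, beside 0; and in resistant tumours at most 1. The cause of these shifts was not tested.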
